A study of Mus musculus with 100 samples.

Results

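*Slc38a4*, *Sfmbt2*, *Gab1* and *Smoc1* are mouse genes grouped here as imprinted through a histone mark on the maternal copy in the early embryo or placenta. A part of inherited DNA methylation in the silencing of these genes was not tested. They were taken by name from the gene column of the expression table, and all 4 were found among its 25965 genes. The question put to them was how strongly each was expressed, and from which parental copy, in fibroblasts and in pluripotent cells of the same hybrid cross.

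The RNA libraries numbered 18, with 3 biological replicates in each of 6 groups. All cells were F1 hybrids of a BL6 (C57BL/6J) mother and a CAST (CAST/EiJ) father. Female MEFs (mouse embryonic fibroblasts, from 1 female E13.5 embryo by the paper's methods) carried i4F, inherited from the i4F-BL6 mother. This polycistronic cassette of *Oct4*, *Sox2*, *Klf4* and *c-Myc* is switched on by doxycycline. KSR-iPSCs were reprogrammed from female or male MEFs with this cassette, using doxycycline in medium containing knockout serum replacement. Each of the 4 lines, F KSR2 and F KSR4 (female), M KSR3 and M KSR5 (male), goes back to 1 picked colony, later grown without doxycycline. TX 2i ESCs are the female embryonic stem cell line TX1072, without the cassette. They were grown in medium with foetal bovine serum and inhibitors of MEK and GSK3, whereas the medium of the KSR-iPSCs was serum-free. The replicates of a line are samples of that 1 clone, so the p-values measure the spread between such samples. Likewise the MEF replicates go back to 1 embryo and do not measure a spread between animals. Male MEFs were not among the RNA libraries. Since the cross was made in 1 direction, a bias to the BL6 copy cannot be told apart from a bias to the maternal copy, and "maternal" below stands for both.

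In noncanonical imprinting the oocyte marks a gene with trimethylation of histone H3 lysine 27 (H3K27me3), set by Polycomb repressive complex 2, and the early embryo then expresses the paternal copy. The mark itself fades after implantation. In the placenta and other extraembryonic tissues the silence of the maternal copy is carried on by other means, among them DNA methylation at nearby promoters and retroviral repeats, while in the embryo proper most of these genes come to be expressed from both copies. The 4 genes have unrelated products: SLC38A4 carries neutral amino acids into the cell with sodium, SFMBT2 is a Polycomb group protein with MBT domains, GAB1 is a docking protein below receptor tyrosine kinases, and SMOC1 is a secreted calcium-binding matrix protein of the SPARC family that modulates BMP signalling.

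*Slc38a4* (ENSMUSG00000022464) lies on the minus strand of chromosome 15 from 96994823 to 97055956 in GRCm38, the build of the files. *Sfmbt2* spans 10370510 to 10595253 on the plus strand of chromosome 2. Its row carries the identifier ENSMUSG00000086748, which belongs to the antisense gene *Gm13261*, but it has the position and strand of *Sfmbt2*, and *Gm13261* has a row of its own. *Gab1* (ENSMUSG00000031714) lies on the minus strand of chromosome 8 from 80764434 to 80880479, and *Smoc1* (ENSMUSG00000021136) on the plus strand of chromosome 12 from 81026808 to 81186414. Reads were counted per gene with regard to strand.

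The stretch upstream of the outermost start of transcription differed between the genes in its CG content. Whether silencing of a copy acts at this stretch was not tested. RefSeq windows (GRCm38.p6) were matched by symbol for 3 of the 4 genes, without *Smoc1*. The 250 bases before the start are given 5′ to 3′ on the strand of the gene, with each CG dinucleotide, the site of DNA methylation, in capitals.
Slc38a4, chr15:97055957-97056206, minus strand: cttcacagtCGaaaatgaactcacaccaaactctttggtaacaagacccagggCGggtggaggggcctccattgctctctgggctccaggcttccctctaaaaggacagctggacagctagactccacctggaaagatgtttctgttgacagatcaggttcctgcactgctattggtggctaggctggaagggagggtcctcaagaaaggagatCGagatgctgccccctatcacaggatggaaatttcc
Sfmbt2, chr2:10370201-10370450, plus strand: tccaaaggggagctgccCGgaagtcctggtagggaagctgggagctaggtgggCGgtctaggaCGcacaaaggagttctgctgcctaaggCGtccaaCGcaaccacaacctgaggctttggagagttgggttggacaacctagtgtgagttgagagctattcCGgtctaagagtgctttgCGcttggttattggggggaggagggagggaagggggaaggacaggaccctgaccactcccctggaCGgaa
Gab1, chr8:80880520-80880769, minus strand: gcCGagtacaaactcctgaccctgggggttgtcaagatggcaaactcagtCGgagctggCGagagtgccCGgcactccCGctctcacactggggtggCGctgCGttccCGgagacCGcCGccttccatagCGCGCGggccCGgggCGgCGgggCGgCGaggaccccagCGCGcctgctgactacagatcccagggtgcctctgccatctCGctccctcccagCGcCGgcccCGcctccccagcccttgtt
CG, which reads the same on both strands, occurred 3 times upstream of *Slc38a4*, 8 times upstream of *Sfmbt2* and 24 times upstream of *Gab1*. Of all 32851 windows of this length in the table, 71.0% held at least 3, 43.0% at least 8 and 12.0% at least 24. The gene with the strongest allelic change below, *Slc38a4*, thus had the fewest CG of the 3 in this window, and a link between them was not tested. Its further starts inside the gene, at 97031214 to 97031463 and 97020360 to 97020609, held 5 each, and a second *Sfmbt2* start held 15 at 10372186 to 10372435.

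The libraries held 13183036 to 17921280 reads on genes, of which 17.7 to 19.9% could be assigned to a parental copy. Mitochondrial reads, which come from the mother, were 99.96 to 99.99% maternal by this assignment. Fibroblast markers summed to 23110 to 35410 RPM (reads per 1000000) in female MEFs and to 16.4 to 167 RPM in the pluripotent libraries, which is at most 0.602% of the MEF mean, reached by M KSR5 replicate 3. Picked colonies were plated on feeder cells at first, and the part of remaining fibroblasts in the levels was not tested. Of the 8 pluripotency markers, *Pou5f1*, *Zfp42*, *Dppa5a* and *Tdgf1* had no reads in female MEFs, and the list summed to 3674 to 7824 RPM in the pluripotent libraries. Trophoblast markers, of interest because extraembryonic cells keep these imprints, summed to 19.4 to 116.5 RPM in pluripotent libraries, and *Tpbpa* had no reads in M KSR5 and TX 2i ESCs. Extraembryonic endoderm markers stood at 84.7 to 112 RPM in M KSR3 against 3.59 to 47.4 RPM in the other pluripotent libraries, with *Afp* and *Ttr* without reads in M KSR3, and the part of such cells in the values of that line was not tested. In bulk RNA, fewer cells that express a gene and less RNA per cell cannot be told apart.

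*Slc38a4*, *Sfmbt2* and *Gab1* were expressed more highly in all 15 pluripotent libraries than in any MEF library, and *Smoc1* was not. Against female MEFs, the mean of the 5 pluripotent groups was 2.19-fold higher for *Slc38a4*, 8.09-fold for *Sfmbt2* and 9.53-fold for *Gab1*, and 1.61-fold lower for *Smoc1*. All 4 differences passed the threshold of limma, an adjusted p of 0.05 over 14632 genes, as did 74.6% of all genes tested, 42.1% being higher and 32.5% lower. A count of 4 of 4 therefore says little about these genes as a set. Levels are given as log2 RPM, relative to each library and not corrected for gene length, so they can be compared between libraries but not between genes.

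**Figure D1:**
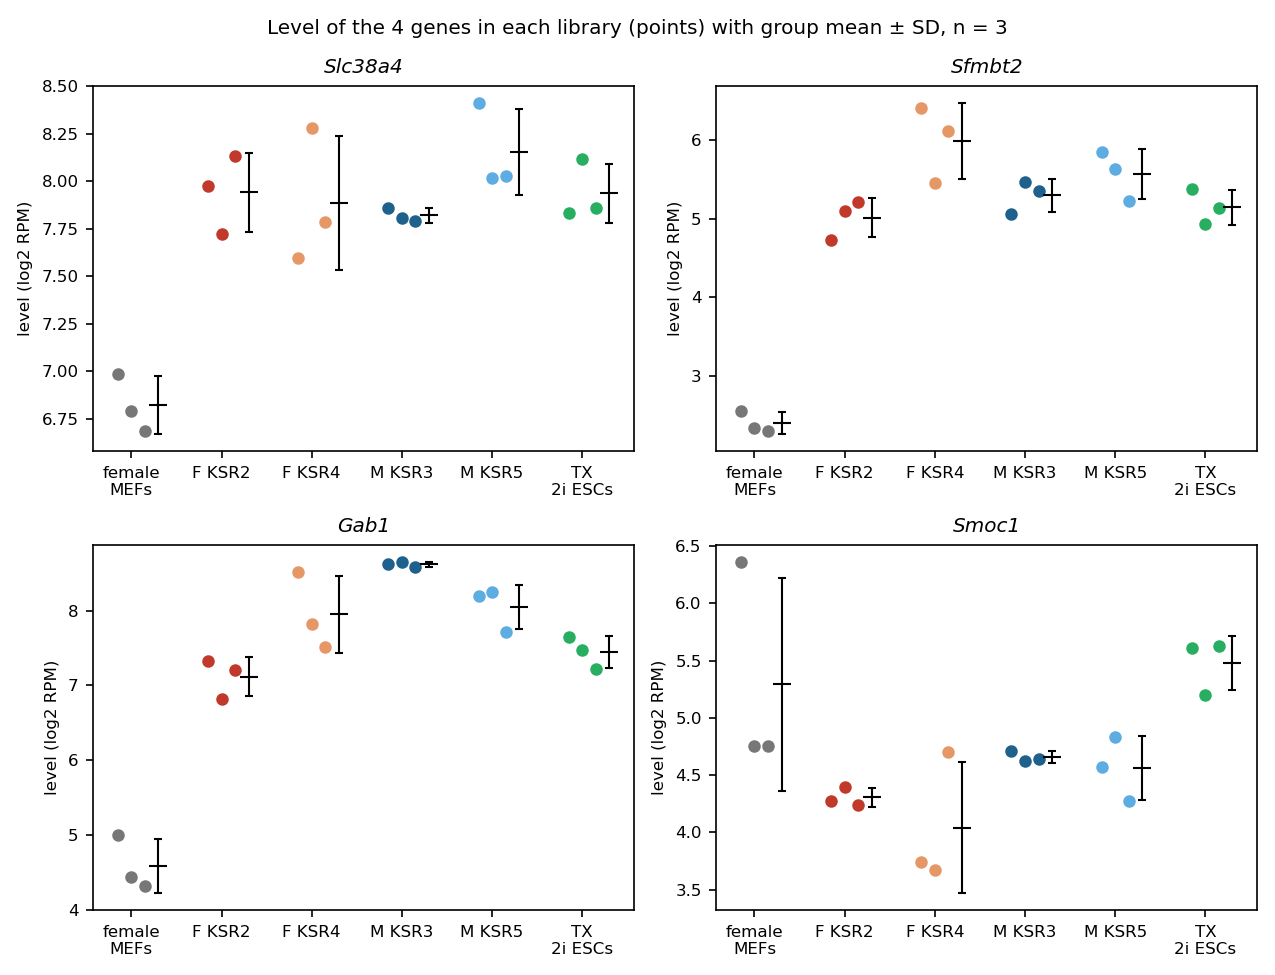
Level of each gene in log2 RPM (y axis, a scale of its own in each panel) by group (x axis). Coloured points are the 3 libraries of a group and the black bar with whiskers is their mean ± SD. For *Slc38a4*, *Sfmbt2* and *Gab1* all pluripotent points lie above the MEF points, whereas for *Smoc1* the first MEF library (6.37) is the highest of all 18.

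*Slc38a4*, the amino acid transporter, stood at 6.99, 6.79 and 6.68 log2 RPM in female MEFs. The values were 7.97, 7.72 and 8.13 in F KSR2, 7.59, 8.28 and 7.79 in F KSR4, 7.86, 7.81 and 7.79 in M KSR3, 8.42, 8.02 and 8.03 in M KSR5, and 7.84, 8.12 and 7.86 in TX 2i ESCs. Every pluripotent library was above every MEF library, while the pluripotent groups overlapped each other except for M KSR3 and M KSR5. The difference was 1.13 (SE 0.14, adjusted p = 1.0e-06). In M KSR5, which had the highest mean, the median of the 566 other genes tested on chromosome 15 was also 0.43, 0.40 and 0.09 log2 above its mean over the pluripotent libraries, against -0.15 to -0.02 in the other groups, and its part in the level was not tested. In the order of the group means, female MEFs (6.82 ± 0.15, SD, n = 3) were followed by M KSR3 (7.82 ± 0.04), F KSR4 (7.89 ± 0.35), TX 2i ESCs (7.94 ± 0.16), F KSR2 (7.94 ± 0.21) and M KSR5 (8.16 ± 0.23). Only the first step of that order passed the threshold (1.00, SE 0.18, adjusted p = 9.3e-05, in a comparison that 67.6% of genes passed), and the other neighbours differed by 0.01 to 0.21 with adjusted p of 0.74 to 0.99.

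*Sfmbt2*, the Polycomb group gene, was low in female MEFs at 2.55, 2.33 and 2.29 log2 RPM, which rests on 93 to 99 reads. It stood at 4.73, 5.10 and 5.21 in F KSR2, 6.41, 5.46 and 6.12 in F KSR4, 5.07, 5.47 and 5.36 in M KSR3, 5.86, 5.64 and 5.23 in M KSR5, and 5.38, 4.93 and 5.14 in TX 2i ESCs. The lowest pluripotent library was thus more than 2 log2 units above the highest MEF library. The difference was 3.02 (SE 0.19, adjusted p = 1.4e-10). Female MEFs (2.39 ± 0.14) were followed by F KSR2 (5.02 ± 0.25), a step of 2.62 (SE 0.24, adjusted p = 4.3e-08, with 67.0% of genes passing). Above them came TX 2i ESCs (5.15 ± 0.22), M KSR3 (5.30 ± 0.21), M KSR5 (5.57 ± 0.32) and F KSR4 (6.0 ± 0.49), whose neighbours differed by 0.13 to 0.42 with adjusted p of 0.35 to 0.80.

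*Gab1*, the docking protein, was at 5.00, 4.44 and 4.32 log2 RPM in female MEFs. The values were 7.32, 6.82 and 7.20 in F KSR2, 8.52, 7.82 and 7.52 in F KSR4, 8.62, 8.65 and 8.59 in M KSR3, 8.19, 8.24 and 7.71 in M KSR5, and 7.65, 7.47 and 7.23 in TX 2i ESCs. M KSR3 held the 3 highest values of all libraries, with the smallest spread of any group. The difference from female MEFs was 3.25 (SE 0.19, adjusted p = 5.0e-11). F KSR2 (7.12 ± 0.26), the lowest pluripotent group, was still 2.53 above female MEFs (4.59 ± 0.37; SE 0.24, adjusted p = 6.6e-08). The next groups were TX 2i ESCs (7.45 ± 0.21), F KSR4 (7.95 ± 0.51), M KSR5 (8.05 ± 0.30) and M KSR3 (8.62 ± 0.03), and their neighbours differed by 0.09 to 0.57 with adjusted p of 0.17 to 0.87.

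The level of chromosome 8 as a whole moved with *Gab1* in several lines. Relative to the other autosomes, the median of the 788 other genes tested on that chromosome was 0.17, 0.17 and 0.18 log2 above its mean over the 15 pluripotent libraries in M KSR3, 0.17, 0.11 and -0.11 in F KSR4, and -0.33, -0.32 and -0.31 in F KSR2. *Gab1* itself deviated by 0.79, 0.82 and 0.75 in M KSR3, 0.68, -0.01 and -0.32 in F KSR4, and -0.51, -1.01 and -0.63 in F KSR2. The 2 measures had the same sign in 8 of these 9 libraries, and the part of the chromosome in the level of *Gab1* was not tested. In TX 2i ESCs they differed in sign, with the chromosome at 0.14 to 0.22 and *Gab1* at -0.19, -0.37 and -0.61.

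*Smoc1*, the matrix protein, went its own way. Its levels in female MEFs were 6.37, 4.76 and 4.75 log2 RPM, so that the first library stood well above the other two. The pluripotent values were 4.28, 4.40 and 4.24 in F KSR2, 3.74, 3.68 and 4.70 in F KSR4, 4.71, 4.62 and 4.64 in M KSR3, 4.57, 4.83 and 4.28 in M KSR5, and 5.61, 5.20 and 5.63 in TX 2i ESCs. Among the KSR-iPSC libraries only M KSR5 replicate 2 (4.83) was above MEF replicates 2 and 3, and all others were below both. The TX 2i ESC libraries lay between MEF replicates 2 and 3 and MEF replicate 1. The difference between pluripotent groups and female MEFs was -0.68 (SE 0.27, adjusted p = 0.031), and without MEF replicate 1 it was -0.15 (adjusted p = 0.58). No neighbours in the order F KSR4 (4.04 ± 0.57), F KSR2 (4.30 ± 0.08), M KSR5 (4.56 ± 0.28), M KSR3 (4.66 ± 0.05), female MEFs (5.29 ± 0.93) and TX 2i ESCs (5.48 ± 0.24) differed past the threshold, the adjusted p running from 0.12 to 0.94.

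Groups further apart in these orders were also compared, after the values had been seen, and the share of all genes that passed differed widely between pairs. It was 1.14% between the female lines, 4.48% between the male lines, 2.34% between M KSR5 and F KSR4, 2.82% between M KSR5 and F KSR2, 10.7% between M KSR3 and F KSR2 and 13.1% between M KSR3 and F KSR4. Against TX 2i ESCs it was 12.8% for F KSR2, 15.4% for F KSR4, 23.1% for M KSR3 and 18.2% for M KSR5. Against female MEFs it was 65.8% for F KSR4, 67.9% for M KSR5 and 66.5% for TX 2i ESCs, and *Slc38a4*, *Sfmbt2* and *Gab1* passed there in all 5 pluripotent groups.

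Among the pluripotent groups, *Gab1* was higher in M KSR3 than in F KSR2 by 1.51 (adjusted p = 9.4e-04) and than in TX 2i ESCs by 1.17 (adjusted p = 0.0021), and both calls held without any 1 library. It was also 0.93 higher in M KSR5 than in F KSR2 (adjusted p = 0.045), a call lost in 12 of the 18 fits that left out 1 library. *Sfmbt2* was 0.85 higher in F KSR4 than in TX 2i ESCs (adjusted p = 0.024), which was lost without replicate 1 or 3 of F KSR4 or replicate 2 or 3 of TX 2i ESCs (adjusted p 0.058 to 0.094).

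*Smoc1* was higher in TX 2i ESCs than in F KSR4 by 1.44 (adjusted p = 0.011), in every fit without 1 library, and than in F KSR2 by 1.18 (adjusted p = 0.035), a call lost without any 1 of the 6 libraries of that pair (adjusted p 0.054 to 0.11). Against M KSR3 (0.82, adjusted p = 0.10) and M KSR5 (0.92, adjusted p = 0.080) its higher level in TX 2i ESCs did not pass. Compared with female MEFs it was lower in F KSR2 by 0.99 (adjusted p = 0.019) and in F KSR4 by 1.25 (adjusted p = 0.0047). Without MEF replicate 1 these differences were -0.45 (adjusted p = 0.17) and -0.72 (adjusted p = 0.035). No pair of pluripotent groups differed past the threshold in *Slc38a4*.

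Set against TX 2i ESCs, the 4 KSR-iPSC lines differed in *Smoc1*, the single gene of the 4 to pass the threshold, which 23.0% of all genes did. It was 2.13-fold lower in the lines (-1.09 log2, SE 0.28, adjusted p = 0.0088), all 12 of whose libraries were below all 3 of TX 2i ESCs. Without TX 2i ESC replicate 1 or replicate 3 the adjusted p was 0.053 or 0.054, with differences of -1.02 in both cases. The other 3 genes differed by 0.01 (*Slc38a4*, 95% interval -0.28 to 0.31), 0.32 (*Sfmbt2*, -0.08 to 0.72) and 0.49 (*Gab1*, 0.09 to 0.89, adjusted p = 0.074), and for *Gab1* the fit with the replicate number as a block gave an adjusted p of 0.025.

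None of the 4 genes differed past the threshold between the 6 female and the 6 male KSR-iPSC libraries by limma, in a comparison that 2.87% of 13609 genes passed. The libraries are replicates of F KSR2 and F KSR4 or of M KSR3 and M KSR5, which the fit treated as independent. A difference by sex cannot be told apart here from a difference between clones. *Gab1* came closest and was lower in female lines by 0.80 log2 (SE 0.25, unadjusted p = 0.0049, adjusted p = 0.093). Its female libraries ran from 6.82 over a median of 7.42 to 8.52 and its male libraries from 7.71 over 8.42 to 8.65, so they overlapped. Without F KSR4 replicate 1 the adjusted p was 0.019 and without M KSR5 replicate 3 it was 0.047. *Smoc1* had an unadjusted p of 0.043 (-0.44), so 2 of the 4 were under 0.05 before adjustment, as were 18.5% of all genes. *Slc38a4* (-0.07) and *Sfmbt2* (0.07) differed by less than their standard errors.

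The parental copies showed what the summed levels hid. In female MEFs *Slc38a4* was read almost wholly from the paternal copy, and in every pluripotent library from both. *Sfmbt2* turned from a modest paternal to a maternal excess, *Gab1* from balance to a maternal excess in 3 of 4 lines and TX 2i ESCs, which in F KSR4 and M KSR3 did not pass the threshold against its own chromosome, and *Smoc1* had a maternal excess in MEFs and KSR-iPSCs but not in TX 2i ESCs. The measure is the maternal share, the percentage of BL6 reads among reads that carry a strain-specific SNP. For the test, the log2 ratio of maternal to paternal reads, with 1 read added to each and the median autosomal gene set to 0, was compared by limma over 8532 genes.

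**Figure D2:**
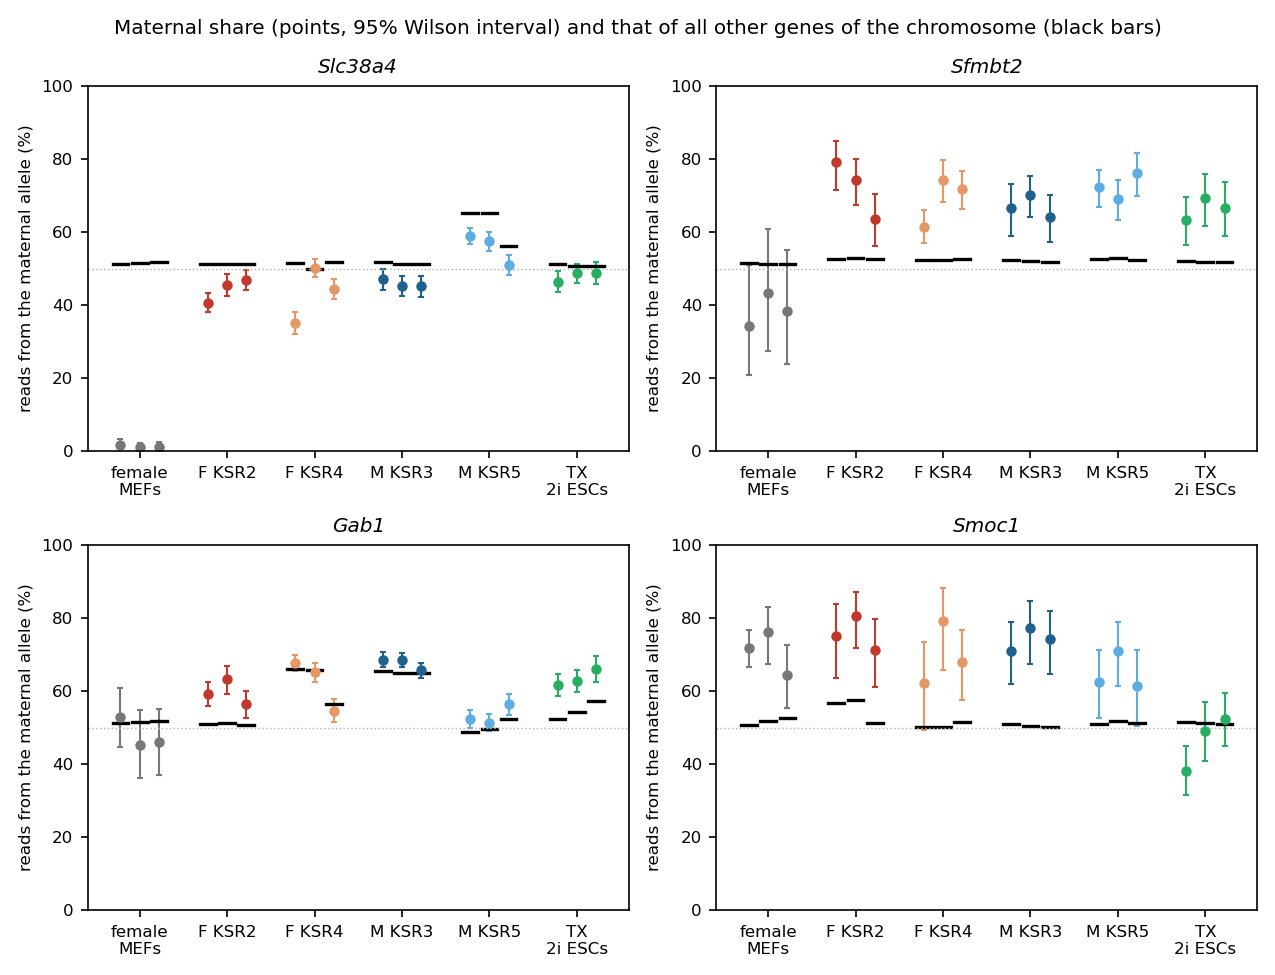
Maternal share in percent (y axis) of each gene by group (x axis), with a point per library and its 95% Wilson interval, which covers counting error only. Black bars give the share of all other genes of the same chromosome in that library. *Slc38a4* lies at 1.74% or less in the MEFs and at 35.0 to 58.9% elsewhere, and the bars rise to about 65% on chromosome 8 in F KSR4 and M KSR3 and on chromosome 15 in M KSR5.

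In the 3 female MEF libraries 10 of 575, 6 of 604 and 7 of 597 allelic reads of *Slc38a4* were maternal. These are shares of 1.74% (95% Wilson interval 0.95 to 3.17), 0.99% (0.46 to 2.15) and 1.17% (0.57 to 2.40). From the paternally expressed genes that the study picked for single-copy expression in these MEFs, 12 canonical imprinted ones were compared, not the whole selection. Their mean shares in female MEFs were 0 to 6.84%, so *Slc38a4* sat within their range. Those 12 genes also gained maternal reads in the pluripotent groups, where their median shares were 43.7 to 58.0% and their median rise in log2 allelic ratio was 5.34. Single genes differed widely, from 4.97 to 79.4% in M KSR3, 10.7 to 74.8% in M KSR5 and 39.7 to 96.7% in F KSR2. The paper traced a switch to the maternal copy of *Sgce*, *Peg10* and *Mest* in F KSR2 to maternal disomy of chromosome 6. Having been picked on these samples, the 12 genes are no independent evidence of that direction. In the pluripotent libraries the share of *Slc38a4* was 40.6, 45.5 and 46.9% in F KSR2, 35.0, 50.2 and 44.4% in F KSR4, 47.0, 45.2 and 45.1% in M KSR3, 58.9, 57.4 and 51.0% in M KSR5, and 46.3, 48.7 and 48.7% in TX 2i ESCs. No pluripotent library came near the MEF values. The log2 allelic ratio rose by 5.91 (SE 0.15, adjusted p = 8.5e-17) from female MEFs to the pluripotent groups, a comparison in which 19.0% of genes passed, 10.4% upward and 8.56% downward.

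A smaller paternal excess of *Slc38a4* than in MEFs was measured in some lines, with mean shares inside the range of its neighbours there, given below. Whether this excess of *Slc38a4* is left over from the fibroblasts was not tested. Against the median autosomal gene, its ratio was lower by 0.46 in F KSR2 (adjusted p = 0.011, 30.6% of genes passing), by 0.55 in F KSR4 (adjusted p = 0.0042, 29.0%) and by 0.44 in M KSR3 (adjusted p = 0.014, 34.7%). Each of these calls was lost without 1 library: replicate 1 of F KSR2 (adjusted p = 0.13), replicate 1 of F KSR4 (0.12), or replicate 2 or 3 of M KSR3 (0.070 and 0.073). Without setting the median autosomal gene to 0, F KSR2 came to -0.33 (adjusted p = 0.070) and M KSR3 to -0.24 (adjusted p = 0.18). In TX 2i ESCs the ratio was -0.17 (95% interval -0.45 to 0.11). M KSR5 stood apart with 0.19 (-0.09 to 0.47), and there the rest of chromosome 15 was 65.2, 65.2 and 56.0% maternal, against 49.9 to 51.9% in the other libraries. Set against its own chromosome, *Slc38a4* in M KSR5 came to -0.39 (adjusted p = 0.018), the same side as in the other lines.

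Read by copy, the level of *Slc38a4* rose through the maternal one. In reads per 1000000 allelic reads, the maternal copy gave 2.39 ± 0.92 (SD, n = 3) in female MEFs and between 180 ± 8.86 (M KSR3) and 297 ± 63.1 (M KSR5) in the pluripotent groups. The paternal copy gave 178 ± 14.0 in female MEFs and between 213 ± 3.61 (M KSR3) and 257 ± 32.5 (F KSR4) elsewhere. On the deposited values of each copy, the maternal one was higher by 6.39 log2 (SE 0.22, adjusted p = 3.5e-14, with 63.3% of 13795 genes passing) and the paternal one by 0.36 (SE 0.13, adjusted p = 0.021, with 63.2% of 13768 passing). The paternal call was lost without MEF replicate 2 (0.32, adjusted p = 0.11) or 3 (0.34, adjusted p = 0.096).

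**Figure D3:**
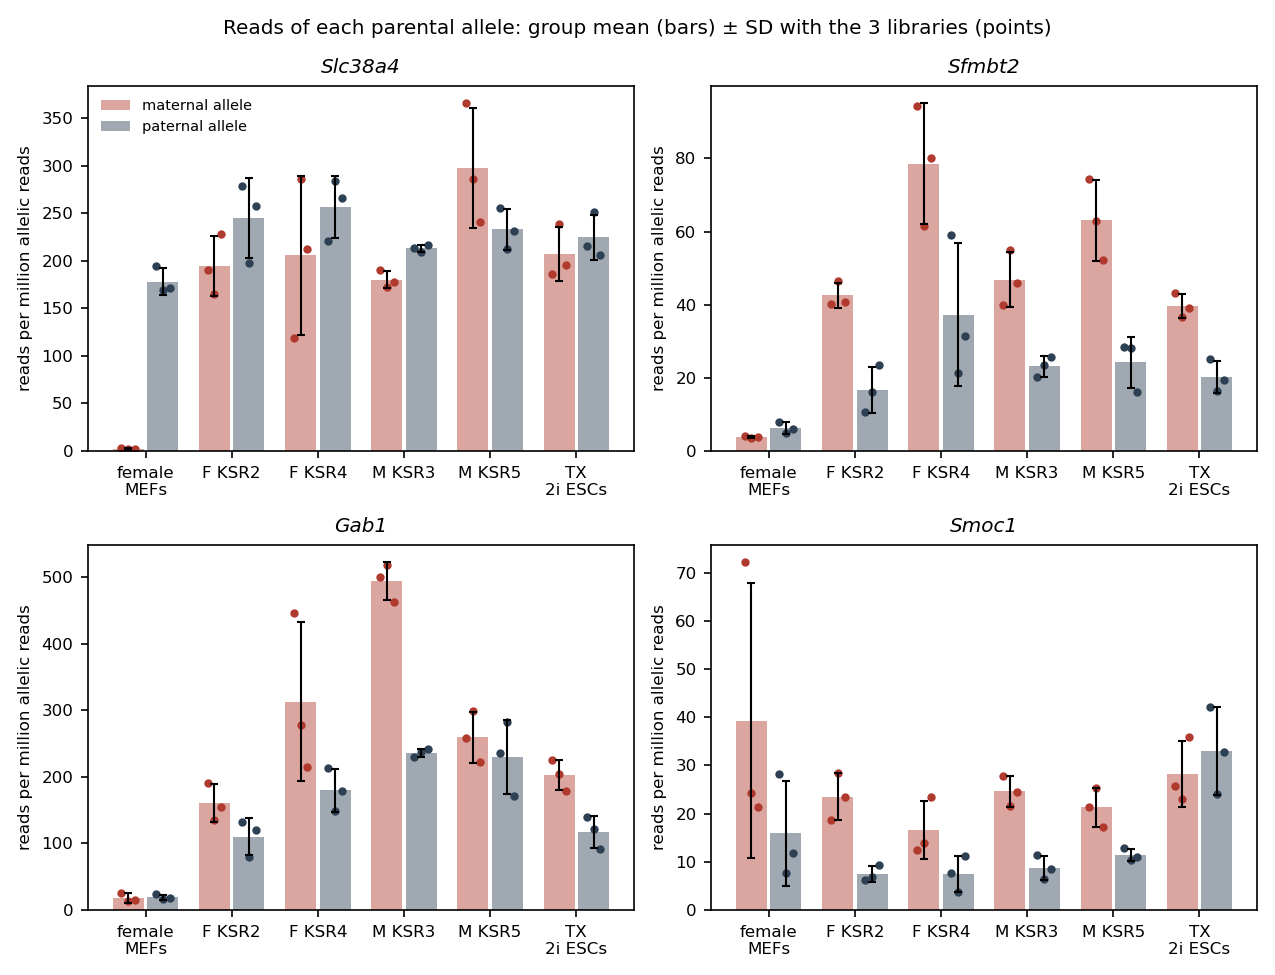
Reads of the maternal (red) and paternal (dark blue) copy per 1000000 allelic reads of the library (y axis, linear, starting at 0) by group (x axis). Bars are group means, whiskers ± SD and points the 3 libraries. The maternal bar of *Slc38a4* is 2.39 in female MEFs and at least 180 elsewhere, while its paternal bar runs from 178 to 257.

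For *Sfmbt2* the MEF values rest on few reads: 12 of 35, 13 of 30 and 13 of 34 allelic reads were maternal, or 34.3% (20.8 to 50.8), 43.3% (27.4 to 60.8) and 38.2% (23.9 to 55.0). The pluripotent shares were 63.3, 69.2 and 66.7% in TX 2i ESCs, 79.1, 74.3 and 63.5% in F KSR2, 61.5, 74.3 and 71.8% in F KSR4, 66.5, 70.0 and 64.0% in M KSR3, and 72.3, 69.1 and 76.3% in M KSR5. All 15 pluripotent libraries lay above all 3 MEF libraries, and above the 51.7 to 52.9% of the rest of chromosome 2 in the same libraries. The ratio rose by 1.78 (SE 0.21, adjusted p = 4.2e-06). Within female MEFs it was -0.73 (SE 0.19, adjusted p = 0.011, with 15.6% of genes passing), a call lost without MEF replicate 1 (adjusted p = 0.11) or 3 (0.064). In the pluripotent groups it was between 0.80 (M KSR3, adjusted p = 0.0022) and 1.26 (F KSR2, adjusted p = 1.8e-05), past the threshold in each of the 5, TX 2i ESCs (0.92, adjusted p = 6.7e-04, 33.1% of genes passing) and M KSR5 (1.26, adjusted p = 4.8e-05, 23.4%) included.

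Both copies of *Sfmbt2* rose, the maternal one further. Its maternal reads went from 3.85 ± 0.24 per 1000000 allelic reads in female MEFs to between 39.7 ± 3.27 (TX 2i ESCs) and 78.6 ± 16.4 (F KSR4), and its paternal reads from 6.26 ± 1.56 to between 16.7 ± 6.40 (F KSR2) and 37.2 ± 19.6 (F KSR4). By limma the maternal copy was 3.62 log2 higher (SE 0.17, adjusted p = 3.4e-12) and the paternal copy 1.85 (SE 0.30, adjusted p = 3.5e-05).

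The antisense gene *Gm13261*, whose start overlaps that of *Sfmbt2* on the other strand (chromosome 2, 10339283 to 10374041), had 0 reads in all 3 MEF libraries. In the pluripotent libraries it had 21 to 108 reads. On few allelic reads, its mean maternal share was 67.9 ± 5.67% in TX 2i ESCs, 74.4 ± 4.18% in M KSR5, 72.8 ± 16.6% in F KSR4 and 72.5 ± 9.50% in F KSR2, and 54.1 ± 15.9% in M KSR3. On the other side, *Pfkfb3*, a glycolytic regulator and the nearest downstream gene with enough allelic reads, was at 53.1 to 56.8% in the pluripotent groups and 60.1 ± 1.87% in female MEFs.

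For *Gab1*, 76 of 144, 48 of 106 and 51 of 111 allelic reads were maternal in female MEFs, or 52.8% (44.7 to 60.8), 45.3% (36.1 to 54.8) and 45.9% (37.0 to 55.2). The pluripotent shares were 59.2, 63.2 and 56.3% in F KSR2, 67.7, 65.1 and 54.7% in F KSR4, 68.6, 68.6 and 65.7% in M KSR3, 52.3, 51.3 and 56.4% in M KSR5, and 61.7, 62.8 and 66.1% in TX 2i ESCs. Only M KSR5 overlapped the MEF values. The ratio was 0.74 higher in the pluripotent groups than in MEFs (SE 0.13, adjusted p = 4.4e-04), and 0.43 (adjusted p = 0.0018) once each gene was set against its own chromosome.

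That setting matters for *Gab1* because whole chromosome 8 was out of balance in the same libraries. The rest of the chromosome was 65.9, 65.9 and 56.5% maternal in F KSR4 and 65.6, 65.1 and 65.1% in M KSR3, against 51.0, 51.3 and 50.6% in F KSR2 and 52.4, 54.4 and 57.2% in TX 2i ESCs. *Gab1* and its chromosome fell together in the third library of F KSR4. Against the median autosomal gene the ratio of *Gab1* was 0.60 in F KSR4 (adjusted p = 7.4e-04) and 0.86 in M KSR3 (adjusted p = 9.1e-06). Against chromosome 8 it was -0.087 (adjusted p = 0.48) and 0.09 (0.50). In F KSR2 it was 0.42 (adjusted p = 0.010) by the first measure and 0.44 (2.6e-04) by the second, and in TX 2i ESCs 0.75 (4.7e-05) and 0.48 (1.1e-04), past the threshold both ways. The first F KSR2 value was lost without its replicate 2 (0.32, adjusted p = 0.13). The adjacent genes set the same lines apart: *Smarca5*, a chromatin remodeller, was at 67.3 and 64.6% in F KSR4 and M KSR3 and at 47.5 to 54.3% in the other groups, and *Usp38*, a deubiquitinase, at 65.1 and 66.3% against 48.3 to 57.4%.

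Both copies of *Gab1* rose many-fold, by 3.78 log2 for the maternal (SE 0.21, adjusted p = 2.2e-11) and 3.09 for the paternal copy (SE 0.18, adjusted p = 1.2e-10). Maternal reads went from 18.2 ± 6.92 per 1000000 allelic reads in female MEFs to between 160 ± 28.5 (F KSR2) and 494 ± 28.4 (M KSR3). Paternal reads went from 19.0 ± 3.77 to between 110 ± 27.6 (F KSR2) and 236 ± 6.02 (M KSR3).

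*Smoc1* was the gene in which the lines and TX 2i ESCs parted. Its maternal share in female MEFs was 71.9% (66.5 to 76.8), 76.1% (67.5 to 83.0) and 64.3% (55.3 to 72.5), on 292, 113 and 115 allelic reads. In the lines it was 75.0, 80.6 and 71.3% (F KSR2), 62.1, 79.2 and 67.8% (F KSR4), 71.0, 77.3 and 74.2% (M KSR3), and 62.4, 70.9 and 61.2% (M KSR5). In TX 2i ESCs it was 37.9, 48.9 and 52.3%, below all 15 other libraries. The ratio differed between the lines and TX 2i ESCs by 1.39 (SE 0.25, adjusted p = 3.9e-04), where 16.9% of genes passed, 13.1% with the higher ratio in the lines and 3.72% with the lower. *Slc38a4* (-0.14), *Sfmbt2* (0.17) and *Gab1* (-0.27, 95% interval -0.55 to 0.02, adjusted p = 0.22) did not pass in that comparison, though *Gab1* reached -0.34 (adjusted p = 0.029) against its own chromosome.

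The maternal excess of *Smoc1* passed the threshold in female MEFs (1.18, SE 0.22, adjusted p = 8.0e-04) and in all 4 lines, from 0.73 in M KSR5 (adjusted p = 0.022) to 1.47 in F KSR2 (adjusted p = 2.3e-05). The M KSR5 value was lost without its replicate 1 (adjusted p = 0.060) or 2 (0.21). Between pluripotent groups as a whole and MEFs the ratio differed by -0.33 (95% interval -0.84 to 0.19, adjusted p = 0.40). By copy, *Smoc1* gave 28.2 ± 6.77 maternal and 33.0 ± 9.05 paternal reads per 1000000 allelic reads in TX 2i ESCs, against 16.6 to 24.6 maternal and 7.47 to 11.4 paternal ones in the lines. The lines and TX 2i ESCs were thus further apart in paternal than in maternal reads. The maternal copy was 0.73 log2 lower in pluripotent groups than in MEFs (SE 0.30, adjusted p = 0.041) and 0.16 lower without MEF replicate 1 (adjusted p = 0.62), and the paternal copy 0.35 lower (adjusted p = 0.40).

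The genes around *Smoc1* also leaned to the maternal copy. *Srsf5*, a splicing factor on the near side, was at 52.3 to 57.9% in every group. *Gm20498* on the far side was at 66.6 to 78.2% in every group, TX 2i ESCs (73.4 ± 6.82%) included. It overlaps *Cox16* on the same strand, so reads of this pair may be shared. The rest of chromosome 12 was 50.0 to 57.5% maternal in all libraries.

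**Figure D4:**
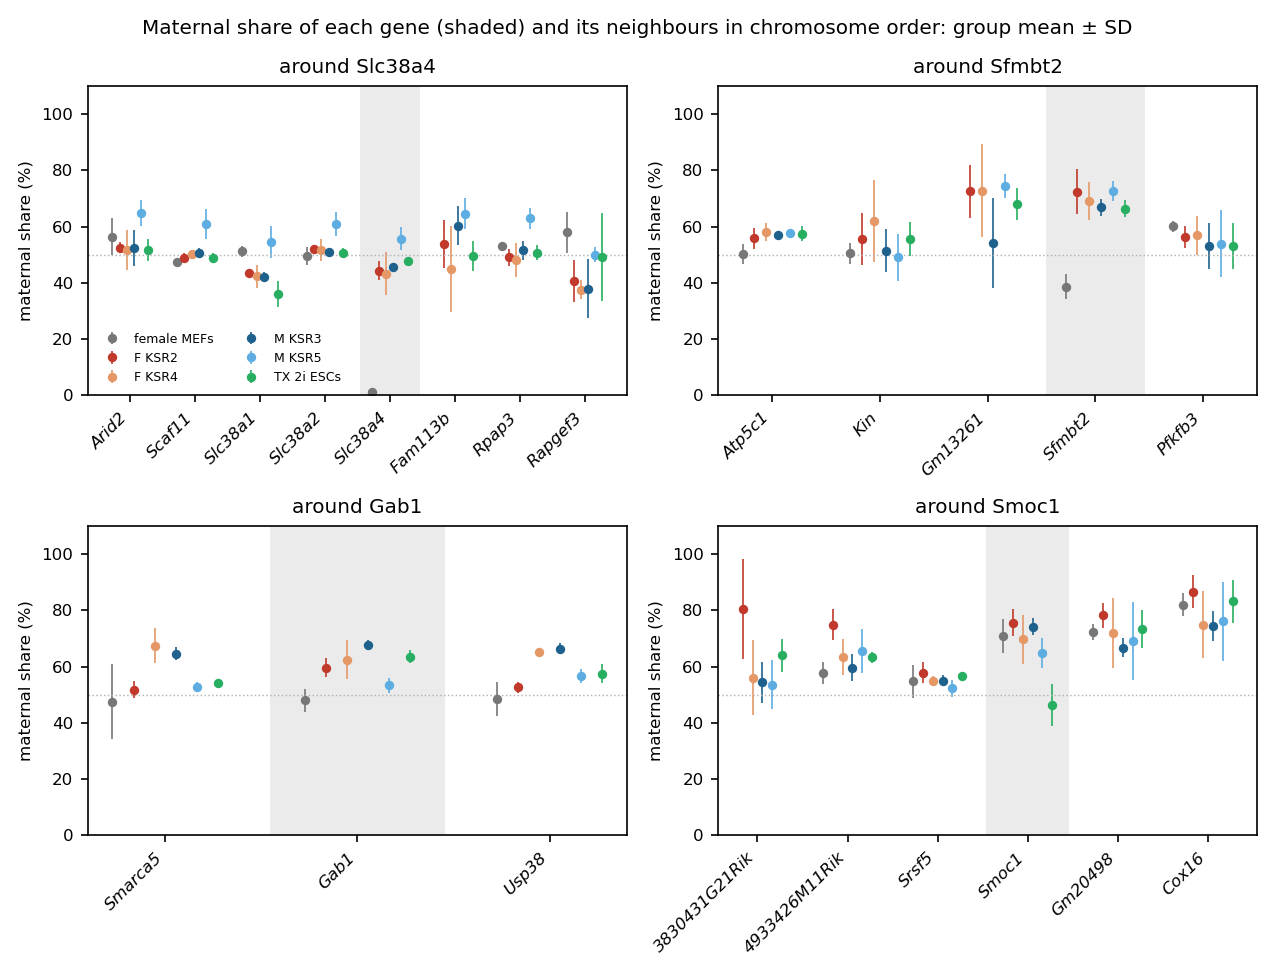
Mean maternal share ± SD in percent (y axis) of each gene (shaded) and of those among the 5 genes of the table on either side that had at least 10 allelic reads in at least 12 libraries, in chromosome order (x axis, not to scale). Colours are groups. *Slc38a4* in female MEFs (1.30%) lies far below its neighbours (47.5 to 57.9%), and *Smoc1* in TX 2i ESCs (46.4%) is the only group mean under 50% in its panel.

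The MEF pattern of *Slc38a4* did not extend to its neighbours. Of the 10 genes around it 7 had enough allelic reads, and the 6 measurable in female MEFs ran from 47.5 to 57.9% there. The 7 ran from 40.6 to 53.8% in F KSR2 (median 49.1%), 37.6 to 51.7% in F KSR4 (48.1%) and 37.9 to 60.4% in M KSR3 (51.0%). In these lines *Slc38a4* itself had means of 44.4, 43.2 and 45.8%. The paralogs *Slc38a1* and *Slc38a2* lie on one side, and *Slc38a2*, the nearer, was 49.4% maternal in female MEFs and 50.6 to 61.0% in the pluripotent groups, with the top value in M KSR5. On the other side *Fam113b* was at 44.8 to 64.6% in the pluripotent groups. Around *Sfmbt2* 4 of 10 genes could be measured, around *Gab1* 2 of 10 and around *Smoc1* 5 of 10.

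Of the other genes known for maternal H3K27me3 in the list, 2 were in the table. *Jade1*, a scaffold of a histone acetyltransferase complex listed under its older symbol *Phf17*, rose from 6.12 ± 0.52 to 8.22 ± 0.38 log2 RPM (2.09, SE 0.20, adjusted p = 5.7e-08). Its maternal share went from 70.4 ± 7.11% in female MEFs to 50.3 to 52.6% in the 4 lines and 30.1 ± 2.03% in TX 2i ESCs, and its ratio fell by 1.46 (adjusted p = 2.1e-07). *Xist*, the RNA that coats the inactive X chromosome, fell by 6.36 log2 (adjusted p = 1.9e-08) from 8.82 ± 0.35 in female MEFs. Since male cells carry a single X chromosome and do not need *Xist*, its mean is given by group. The female cells stood at 0.00 ± 1.24 (TX 2i ESCs), 5.77 ± 0.50 (F KSR4) and 4.25 ± 0.80 (F KSR2), while male cells stood at 1.49 ± 0.54 (M KSR3) and 0.83 ± 1.93 (M KSR5).

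The families and pathways of the 4 genes were measured beside them. Among the 10 SLC38 transporters other than *Slc38a4*, 9 were tested, of which 4 were higher and 1 lower in pluripotent groups (median 0.25, against 0.21 over all genes). *Slc38a5* had no reads in the MEF libraries and 3 to 63 in the pluripotent ones. *Slc38a3* (0 to 9 against 15 to 203 reads) and *Slc38a8* (0 to 1 against 1 to 56 reads) were likewise near absence in MEFs. Of 7 genes, the other MBT domain proteins and *Yy1*, the DNA-binding partner of the SFMBT proteins, 5 were tested, with 4 higher and 1 lower (median 0.74). The counts of both lists are read against all genes tested, of which 42.1% were higher and 32.5% lower. Lists this short say little about the families. *L3mbtl2*, part of a Polycomb repressive complex, rose by 2.78 (SE 0.22), *Mbtd1*, a reader of histone methylation, rose by 1.84 (SE 0.10), and *L3mbtl3* fell by 1.99 (SE 0.25).

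Most genes of the signalling chain of GAB1 were lower where *Gab1* was higher. Of its 23 members, all tested, 4 were higher and 15 lower in the pluripotent groups, with a median of -0.92, against 42.1% of all genes higher, 32.5% lower and a median of 0.21. Among the 8 receptors 7 were lower and 1 higher: *Pdgfrb*, a receptor of fibroblasts, fell by 7.47 (SE 0.42) and *Egfr* by 5.53 (SE 0.39), while *Kit*, the stem cell factor receptor, rose by 6.04 (SE 0.33). *Pdgfrb* also stands on the list of fibroblast markers. Of the 7 other adaptors, 2 were higher and 4 lower, and of the 8 effectors 1 was higher and 4 lower.

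Beside *Smoc1*, 25 of 26 SPARC family and BMP pathway genes were tested, and 2 were higher and 20 lower (median -2.78). Of all genes tested, 42.1% were higher and 32.5% lower in the pluripotent groups (median 0.21). *Smoc2*, its closest relative, had 1938 to 3105 reads in the MEF libraries and 0 to 5 in the pluripotent ones. The BMP antagonist *Grem1* fell by 11.15 (SE 0.99), from 8.30 ± 1.13 log2 RPM in female MEFs to -2.85 ± 1.89 in the pluripotent libraries. It had 0 to 74 reads in the latter, 4 of which had none, so the size of the fall depends on the value held for 0 reads. The 4 BMP receptors and the 4 antagonists were all lower. Between the lines and TX 2i ESCs, where *Smoc1* differed, 3 of these 25 were higher and 5 lower, that is 8 in all, while 23.0% of all genes passed.

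The writers of H3K27me3 and the DNA methylation machinery were mostly higher in the pluripotent groups. Of 11 subunits and partners of Polycomb repressive complex 2, 9 were higher and 1 lower. *Jarid2* rose by 4.48 (SE 0.31), *Mtf2* by 3.23 (SE 0.14) and *Suz12* by 2.60 (SE 0.20), all with every pluripotent library above every MEF library. Of 10 genes for DNA methylation, H3K9 methylation and protection of imprints, 9 were higher. They were led by *Dnmt3l*, a cofactor of methyltransferases (10.06, SE 0.51), whose MEF values rest on 3 to 5 reads. Next came *Dnmt3b*, a de novo methyltransferase (6.15, SE 0.34), and *Zfp57*, which binds methylated imprints (3.09, SE 0.31). For these counts, the shares over all genes tested were 42.1% higher and 32.5% lower.

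**Figure D5:**
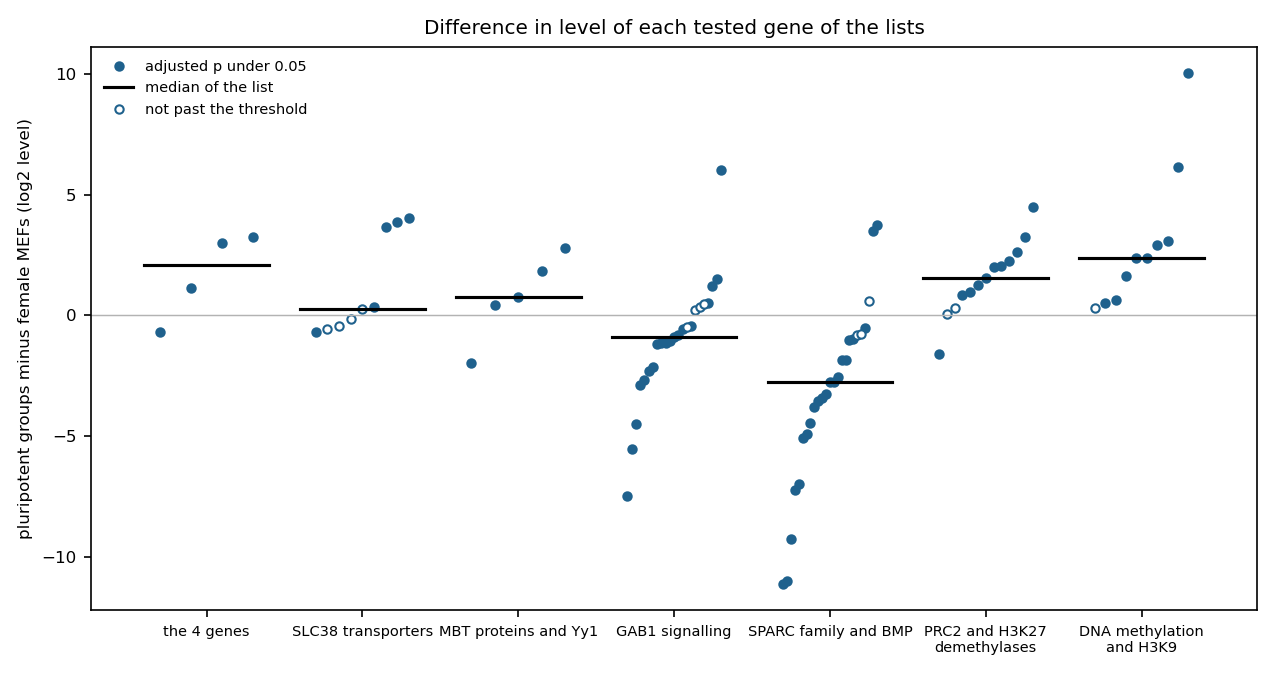
Difference in log2 level between pluripotent groups and female MEFs (y axis) for each tested gene of 7 lists (x axis). Filled points passed an adjusted p of 0.05, open points did not, and the black bar is the median of the list. The median is 2.07 for the 4 genes, -0.92 for GAB1 signalling, -2.78 for the SPARC family and BMP and 1.55 for Polycomb repressive complex 2 and the H3K27 demethylases.

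Over the 15 pluripotent libraries the 4 genes did not vary together. Pearson's r between their log2 levels ran from -0.29 (*Sfmbt2* and *Smoc1*) to 0.43 (*Sfmbt2* and *Gab1*). The genes most like *Gab1* among 14631 were *Lsm6* (r = 0.91) and *Slc20a2* (0.90), which lie on chromosome 8 as it does, and *Mfn2* (0.89). For *Slc38a4* they were *Trappc9* (0.88) and *Card10* (0.83), both on chromosome 15, and *Mtl5* (0.85). *Sfmbt2* was nearest to *Camsap3* (0.80), *Galnt13* (0.80) and *Nob1* (0.79), and *Smoc1* to *1110004E09Rik* (0.93), *Atg7* (0.91) and *Rnaseh2a* (0.91). These correlations describe libraries that share lines and are the highest of many.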

How the data were processed

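For 18 RNA libraries the authors deposited log2 RPM values of 25965 genes, for all reads and for reads of the BL6 and the CAST copy, after trimming with Trim Galore, alignment with HISAT2 2.1.0 to GRCm38 and strand-specific counting in SeqMonk. Each copy is scaled to its own total. The supplement calls the values RPKM, but the step between low values is the same for genes of any length. Reads were recovered by undoing the logarithm (99.97 to 100% within 0.05 read of a whole number), with 0 reads held at 0.9 read, and intervals cover counting error only.

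The samples' groups were those of the labels. limma 3.58.1 in R 4.3.3, with an intensity trend, compared log2 values above 0 in at least 3 libraries, and allelic log2 ratios of genes with at least 10 allelic reads in at least 2 of 3 libraries of each group. Adjusted p-values are Benjamini-Hochberg over all genes tested. Both fits were tested on simulated data. Python 3.11.15 served for the rest. The 4 genes and the lists were chosen with earlier results of these data known. From each list the 3 genes with the largest difference past the threshold are named, with the nearest neighbours that had at least 10 allelic reads in 12 libraries and the 3 genes most like each of the 4. Of these, 1 gene is not reported here. edgeR and DESeq2 need a file of counts and were not run, and limma-voom on recovered reads took their place. Methylation samples were not analysed here.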

Additional observations from a re-analysis of the deposited data

Results flagged for a closer look

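The level and the allelic ratio of 1 gene differed between the kinds of pluripotent cells when their change from female MEFs was compared by limma. The level of *Smoc1* was lower by 1.09 log2 in the KSR-iPSC lines than in TX 2i ESCs (SE 0.28, adjusted p = 0.0088), with all 12 libraries of the lines below all 3 of TX 2i ESCs. The call was lost without TX 2i ESC replicate 1 (adjusted p = 0.053) or 3 (0.054). Line by line, the difference passed for F KSR4 and F KSR2 and not for M KSR3 or M KSR5. The allelic ratio of *Smoc1* was higher by 1.39 log2 in the lines (SE 0.25, adjusted p = 3.9e-04), with maternal shares of 64.8 ± 5.26 to 75.6 ± 4.69% (SD, n = 3 for each line) against 46.4 ± 7.49%. The lines and TX 2i ESCs differ in origin, derivation, medium and cassette, and these cannot be told apart here. None of the 4 genes had a level or a maternal share in the 6 female or the 6 male KSR-iPSC libraries that stood apart from the rest by Dixon's test. The largest gap to the next library was 0.61 of the range, for the level of *Slc38a4* in M KSR5 replicate 1. Each set of 6 pools more than 1 line, and a difference between lines widens the range and can hide such a library. Female MEFs and TX 2i ESCs were not covered.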

How the results depend on the processing

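Parentage and strain cannot be told apart in 1 cross, MEF values rest on 1 female group whose first replicate decides the level of *Smoc1*, and 30 to 35 allelic reads per library limit *Sfmbt2* in MEFs. The planned edgeR and DESeq2 fits were not run, and limma-voom was added after the values had been seen. TMM scaling lowered pluripotent levels by 0.18 log2 at the median and turned no direction of the 4 genes. Shares taken from the deposited values of each copy, which are scaled by totals with 1.06 to 1.42 maternal reads per paternal read, were lower by more than 1 SD in 13 of 24 cases: *Slc38a4* 45.9% in TX 2i ESCs, 38.3% in F KSR2, 37.3% in M KSR3 and 49.3% in M KSR5; *Sfmbt2* 58.6% in M KSR3 and 67.1% in M KSR5; *Gab1* 43.8% in female MEFs, 53.4% in F KSR2, 59.5% in M KSR3 and 46.8% in M KSR5; *Smoc1* 70.7% in F KSR2, 66.9% in M KSR3 and 58.8% in M KSR5. Centring on the own chromosome turned *Gab1* in F KSR4 to -0.087 and *Slc38a4* in M KSR5 to -0.39, and took the allelic calls between the lines and TX 2i ESCs from 1438 to 547. Calls between female and male lines went from 390 to 232 without a filter on low values and to 138 with the line as a random effect, and leaving out 1 library gave 187 to 521. Leaving out 1 library gave 2125 to 4317 level calls between the lines and TX 2i ESCs (3372 with all), and for allelic ratios 1051 to 1849 between pluripotent groups and MEFs (1619), 838 to 1460 in female MEFs alone (1335) and 1289 to 2123 in M KSR5 alone (1998). The level of *Smoc1* between pluripotent groups and MEFs had an adjusted p of 0.052 without the filter, and that of *Gab1* between the lines and TX 2i ESCs 0.049 with limma-voom. Equal replicate numbers were not taken to pair the samples: their deviations correlated at -0.20 to 0.38, over 0.1 in 13 of 45 pairs (in all 3 of them for F KSR2 with TX 2i ESCs, at 0.17 to 0.25), and 9 of 18 libraries were most like their own number. With the replicate number as a block, the difference of *Gab1* between the lines and TX 2i ESCs stayed at 0.49 and passed (adjusted p = 0.025), the only call of the 4 genes to change. The cause of these shifts was not tested.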
